A study of Homo sapiens with 6 samples.

Results

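A set of 10 imprinted genes was followed in KMS11 cells after CRIP1 was lowered: DLK1, IGF2, PEG3, PLAGL1, PEG10, SGCE, MEST, SNRPN, PHLDA2 and GNAS. They were taken from the deposited table by gene symbol, and all 10 were found among its 17918 genes. KMS11 is an established human cell line from multiple myeloma, in which plasma cells, the makers of antibody, grow as a cancer. CRIP1 encodes a small LIM domain protein. The series holds 3 libraries of KMS11 cells with a short hairpin RNA (shRNA) against CRIP1, called knockdown here, and 3 of KMS11 cells with a scramble shRNA, whose genotype the labels give as wild type. No drug was added to either group. The labels do not say whether a line was a pool or a clone, nor that each replicate was grown as a culture of its own. The p-values given below therefore reflect the scatter among these libraries, and that scatter may be technical.

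An imprinted gene is transcribed mainly from the copy inherited from 1 parent. The choice is kept by DNA methylation laid down in the egg or sperm at an imprinting control region, which zinc-finger proteins recognise and protect after fertilisation. Many imprinted genes act in fetal and placental growth, and they lie in clusters where neighbours on opposite alleles share 1 control region. DLK1, PEG3, PEG10, SGCE, MEST, SNRPN, IGF2 and PLAGL1 are expressed from the paternal copy, PHLDA2 from the maternal copy, and GNAS from either copy depending on transcript and tissue. The deposited values are sums over a gene and hold no allele, so none of them measures imprinting itself.

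The targeted gene was low in every knockdown library. CRIP1 stood at 2790.89, 3326.68 and 3173.99 TPM (a level per gene length, with an equal sum in all libraries) in the scramble libraries and at 127.14, 128.79 and 134.23 TPM in the knockdown libraries. Library totals were 16971454 to 18005318 estimated counts. With edgeR's quasi-likelihood test and an adjusted p below 0.05 as the call, 9783 of the 12612 genes tested differed between the groups (77.6%), 4974 higher (39.4%) and 4809 lower (38.1%) in the knockdown. That split was 3925 higher and 6082 lower once a trend with GC content was removed, and 5531 higher and 3482 lower with limma on log2(TPM + 1). Of 10 plasma cell markers, 9 were tested, 3 rose and 6 fell, and their summed level was 9280 to 9670 TPM in the scramble and 4710 to 4880 TPM in the knockdown libraries. Most of that sum was JCHAIN, the joining chain of secreted antibody, at 6440 ± 223 TPM in the scramble and 1790 ± 158 TPM in the knockdown (SD, n = 3). The receptor gene FGFR3 is counted among the 6 because edgeR called it lower (log2 fold change -0.14, adjusted p = 0.00384). Its level was 897 ± 34.4 and 896 ± 53.3 TPM, however, and the groups overlapped. TNFRSF17, IRF4 and CD38 were the 3 that rose. SLAMF7 was near 0 in both groups, with 2 counts over the scramble and 9 over the knockdown libraries.

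The knockdown libraries also stood apart in genes that the scramble libraries lacked. The 17 erythroid markers summed to 4.75 to 5.95 TPM in the scramble and 754 to 764 TPM in the knockdown libraries. Of the 13 that passed the filter on low counts, 12 were called higher, but those 12 had 0 to 8 counts over the scramble group and passed through their knockdown counts alone, so that number is no support. EPOR, the erythropoietin receptor gene, was at 4.61 ± 0.867 and 4.83 ± 0.699 TPM and was not called. The globin genes HBA1, HBA2, HBE1, HBG1, HBG2 and HBZ had 0 counts in the scramble libraries, while HBB, which encodes the adult beta chain, had 1 count over all 6 libraries. A total of 319 genes reached 5 or more counts in each of the knockdown libraries with no more than 3 summed over the scramble libraries, against 28 genes the other way. Their part in the changes of the imprinted genes was not tested. In bulk RNA, fewer cells of a type and less RNA per cell cannot be told apart.

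The 10 genes were chosen by their counts and TPM in these same groups, with DLK1 silent in the scramble libraries, so their calls are given as a description, with no p. Of the 10, 8 passed the filter on low counts, DLK1 through its knockdown counts alone. In the knockdown, 4 were called higher (DLK1, SGCE, PLAGL1, GNAS), 3 were called lower (PEG10, MEST, SNRPN) and PEG3 was not called, beside 77.6% of all genes tested that were called in either direction. PHLDA2 had too few counts to be tested, and IGF2 had none. The TPM values of the groups did not overlap for 7 of the 8 tested genes, against 78.5% of all genes tested. The median log2 fold change was 0.15 over the 8 genes and 0.01 over all genes tested. DLK1, chosen as silent in the scramble libraries, counts toward that 0.15, so it is no support for a rise of the set. Over the 7 paternally expressed genes tested, DLK1 included, the median was -0.17.

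**Figure D1:**
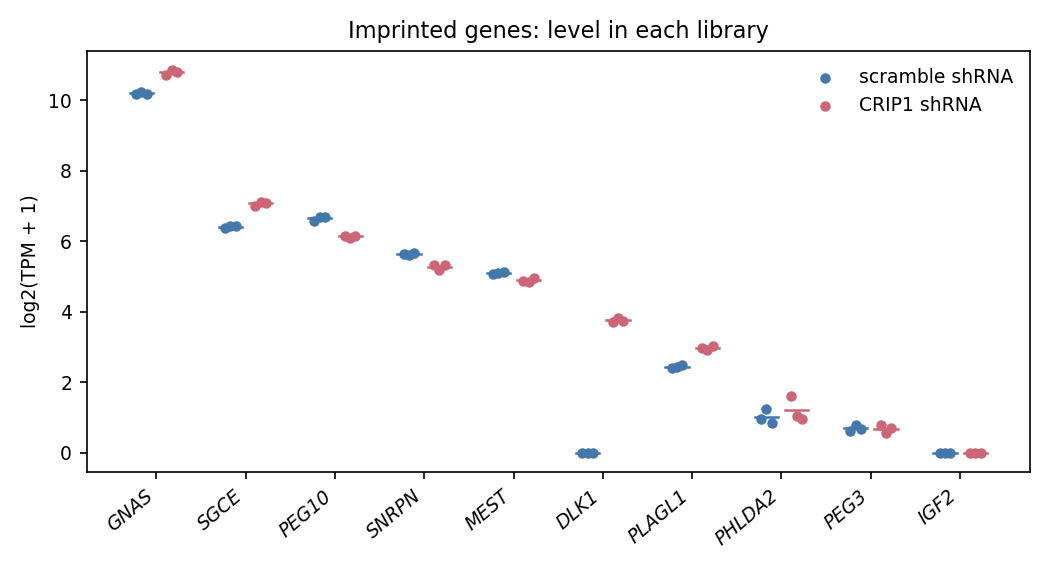
Level of the 10 imprinted genes as log2(TPM + 1), on a log2 axis, with 1 point for each of 3 scramble and 3 knockdown libraries and a short line at the mean of each group. DLK1 is at 0 in the scramble libraries and at 12.14 to 13.14 TPM in the knockdown libraries, whereas the groups overlap in PEG3 and PHLDA2. IGF2 is at 0 in every library.

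RefSeq starts (GRCh38.p14) were at hand for 4 of the 10 genes: PLAGL1, MEST, SNRPN and GNAS. The 250 bases before a start of MEST and of PLAGL1 are shown. Both genes are paternally expressed and moved in opposite directions in the knockdown. Each has several starts, and the gene sums do not tell which were used. A window shown therefore need not belong to the imprinted transcript. The sites that DNA methylation can occupy, the CG dinucleotides, can be read in each window. Letters run 5′ to 3′ on the strand of the gene, with each CG in capitals. The MEST window is chr7:130491808-130492057 on the plus strand and the PLAGL1 window is chr6:144064600-144064849 on the minus strand.
MEST: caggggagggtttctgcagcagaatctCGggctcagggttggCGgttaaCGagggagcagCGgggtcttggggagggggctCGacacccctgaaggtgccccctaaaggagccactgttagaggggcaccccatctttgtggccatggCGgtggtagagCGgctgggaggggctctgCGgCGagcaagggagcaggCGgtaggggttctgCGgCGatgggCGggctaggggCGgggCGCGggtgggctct
PLAGL1: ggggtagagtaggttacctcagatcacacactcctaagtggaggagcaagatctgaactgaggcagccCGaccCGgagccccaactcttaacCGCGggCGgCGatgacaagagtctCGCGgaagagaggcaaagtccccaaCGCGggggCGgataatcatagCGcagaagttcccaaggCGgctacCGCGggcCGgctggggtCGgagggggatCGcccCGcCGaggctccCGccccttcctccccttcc

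The MEST window holds 16 CG dinucleotides at 68.4% G and C, and the PLAGL1 window holds 21 at 64.8%. The ratio of observed to expected CG was 0.621 for MEST and 0.80 for PLAGL1, against a median of 0.558 over 35116 RefSeq windows of 250 bases. Each was picked as the window of its gene with the most CG among those with at least 200 bases free of exons. The 35116 windows were not picked in that way, so their median is no fair background. Picked by the same rule, SNRPN was at 0.386 over 230 bases and GNAS at 0.629 over 248 bases. Neither window shown holds TGCCGC, the core motif of the imprint-binding protein ZFP57, read on both strands. Other windows, which overlap an exon and are not shown, do hold it. PLAGL1 chr6:144008260-144008509 has 32 CG and 2 copies of the motif, and MEST chr7:130486097-130486346 has 20 CG and 1 copy. Over the 20 windows of the 4 genes, 5 held it (25.0%), against 12.7% of all 35116 windows. Each of the 4 genes had it in at least 1 window, but each has several windows, some of which overlap. The share of all genes with the motif in at least 1 window was not computed. No methylation was measured in these cells.

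Of the growth-factor-like ligands, DLK1 went from no reads to a moderate level. DLK1 (NCBI gene 8788, chr14:100725705-100738224, plus strand, GRCh38) encodes a membrane protein with EGF-like repeats that holds back adipocyte differentiation and resembles the ligands of Notch receptors, but lacks the domain by which those activate Notch. It had 0 counts in each scramble library and 527, 586 and 533 counts in the knockdown libraries. Its level was 12.14, 13.14 and 12.49 TPM there, with a mean of 12.6 ± 0.507 (SD, n = 3). The 3 knockdown libraries were close to each other, and all lay above all scramble libraries. Against a floor of 3 counts over the scramble group, DLK1 was at least 532-fold higher, a bound that covers counting error only. By level DLK1 was 7500th of all genes in the knockdown and 25th of the 319 genes seen in the knockdown libraries alone as defined above, whose median was 0.843 TPM. Of the imprinted genes considered here, only ZNF331 was also among those 319 genes, with 2 scramble counts and 0.157 ± 0.0231 TPM in the knockdown (SD, n = 3).

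The genes whose levels over the 6 libraries were most like those of DLK1 were KRT19, SERPINB6, HEPH, GATA1 and CD69, by Euclidean distance of log2(TPM + 1). The distances were 0.16, 0.19, 0.22, 0.31 and 0.32. KRT19, an epithelial keratin, was listed at 0 in the scramble libraries and at 11.9 ± 1.00 TPM in the knockdown. GATA1, the transcription factor of the red cell lineage, was at 0 and at 14.4 ± 0.894 TPM (SD, n = 3). With 6 libraries in 2 groups, likeness here means near 0 in one group and near 12 TPM in the other; it says nothing more about these genes.

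IGF2 (NCBI gene 3481, chr11:2129112-2158658, minus strand), the fetal insulin-like growth factor, had 0 counts in all 6 libraries, which allows up to 3 counts over each group. It was therefore not detectable in either group at this depth.

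The paternally expressed zinc-finger genes differed from each other. PEG3 (NCBI gene 5178, chr19:56810077-56840728, minus strand) encodes a large zinc-finger DNA-binding protein and was weakly expressed. It was at 0.55, 0.73 and 0.61 TPM in the scramble and 0.74, 0.49 and 0.62 TPM in the knockdown libraries, and the groups overlapped. The log2 fold change was -0.17 (SE 0.18), on 41 to 61 counts a library. PLAGL1 (NCBI gene 5325, chr6:143940300-144064599, minus strand), also called ZAC1, encodes a transcription factor that can restrain growth. It was at 4.26, 4.44 and 4.59 TPM in the scramble and 6.82, 6.57 and 7.23 TPM in the knockdown libraries, with no overlap. The log2 fold change was 0.56 (SE 0.10).

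PEG10 and SGCE are head-to-head neighbours on chromosome 7 and moved in opposite directions. PEG10 (NCBI gene 23089, chr7:94656325-94669695, plus strand) derives from a retrotransposon and its product forms virus-like capsids, needed in placental development. SGCE (NCBI gene 8910, chr7:94524204-94656572, minus strand) encodes epsilon-sarcoglycan, a membrane protein whose loss from the paternal copy causes myoclonus-dystonia. Their outermost annotated starts lie 247 bases apart, inside a stretch that both genes share.

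PEG10 was at 95.04, 101.30 and 101.68 TPM in the scramble and 70.74, 67.39 and 70.14 TPM in the knockdown libraries. Every knockdown library lay below every scramble library, with a log2 fold change of -0.65 (SE 0.04). SGCE was at 81.93, 84.75 and 85.77 TPM in the scramble and 128.05, 136.89 and 136.12 TPM in the knockdown libraries. Here every knockdown library lay above, with a log2 fold change of 0.55 (SE 0.04), which was 0.28 once the GC trend was removed. Within a library, the ratio of PEG10 to SGCE in TPM was 1.16, 1.2 and 1.19 in the scramble and 0.552, 0.492 and 0.515 in the knockdown libraries. PEG10 was thus the more abundant of the pair in every scramble library and the less abundant in every knockdown library. The counts carry no stated strand, so reads from the overlap of the pair cannot be told apart.

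MEST was modestly lower in the knockdown. MEST (NCBI gene 4232, chr7:130486171-130506465, plus strand) encodes an enzyme of the alpha/beta hydrolase family that rises with fat tissue growth. It was at 32.70, 33.41 and 33.96 TPM in the scramble and 28.49, 27.88 and 29.85 TPM in the knockdown libraries. The groups did not overlap, and the log2 fold change was -0.35 (SE 0.05), against -0.53 with the GC trend removed and -0.21 on the log2(TPM + 1) scale. COPG2, which encodes a coat protein of transport vesicles, overlaps MEST on the opposite strand and rose from 17.4 ± 0.855 to 34.2 ± 2.91 TPM (SD, n = 3). The ratio of COPG2 to MEST in TPM was 0.557, 0.494 and 0.518 in the scramble and 1.31, 1.19 and 1.07 in the knockdown libraries. MEST had the higher deposited value of the pair in every scramble library and the lower in every knockdown library. With no strand stated, reads from the overlap of MEST and COPG2 cannot be told apart, so both values and their ratio are uncertain to that extent.

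**Figure D2:**
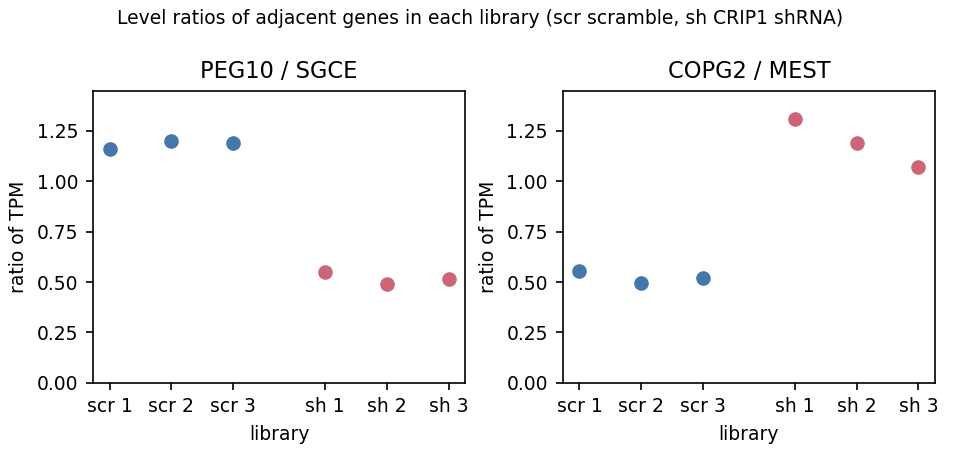
Ratio of TPM within each of the 6 libraries for PEG10 over SGCE and for COPG2 over MEST, with 1 point a library on a linear axis that starts at 0. PEG10 over SGCE is 1.16 to 1.2 in the scramble and 0.492 to 0.552 in the knockdown libraries, and COPG2 over MEST is 0.494 to 0.557 and 1.07 to 1.31.

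SNRPN (NCBI gene 6638, chr15:24823637-24978723, plus strand) lies at the Prader-Willi region and encodes a core protein of the spliceosome. It was at 48.63, 48.20 and 49.68 TPM in the scramble and 39.29, 35.46 and 38.85 TPM in the knockdown libraries. The knockdown libraries all lay below, with a log2 fold change of -0.50 (SE 0.06). SNURF is read from the same transcripts, and the split of reads between SNRPN and SNURF rests on the authors' counting. Summed over both genes, the level in CPM (counts scaled to the library total) was 61.1 ± 2.25 in the scramble and 50.2 ± 1.55 in the knockdown (SD, n = 3).

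PHLDA2 (NCBI gene 7262, chr11:2928273-2929455, minus strand), the maternally expressed brake on placental growth, had 6, 9 and 5 counts in the scramble and 13, 7 and 6 in the knockdown libraries. The groups overlapped, and a difference was not detectable at this depth.

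GNAS was the most abundant of the 10 genes. GNAS (NCBI gene 2778, chr20:58839718-58911192, plus strand) encodes the stimulatory G protein subunit that turns on adenylyl cyclase, and further transcripts from other starts. It was at 1155.55, 1210.09 and 1153.07 TPM in the scramble and 1691.78, 1859.81 and 1793.28 TPM in the knockdown libraries. All knockdown libraries lay above all scramble libraries, with a log2 fold change of 0.47 (SE 0.04). Its rank by level went from 134th to 71st of all genes. The gene sum does not separate the main transcript from the imprinted ones.

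**Figure D3:**
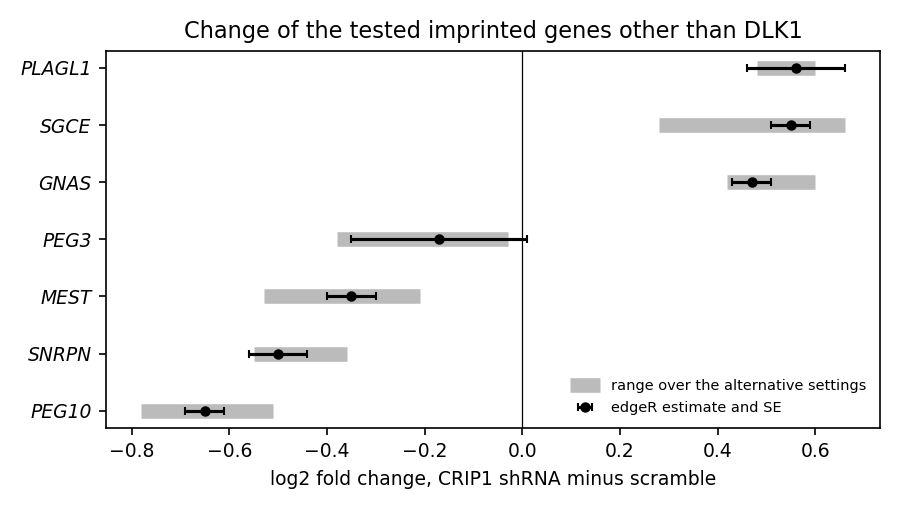
Log2 fold change, knockdown minus scramble, of the 7 tested imprinted genes other than DLK1, with points for the edgeR estimate, bars for its SE and grey bands for the range over the alternative settings. SGCE, PLAGL1 and GNAS lie above 0, and PEG10, MEST, SNRPN and PEG3 below; DLK1 is left out because it has no scramble counts.

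A longer list of 58 imprinted genes was used to set the 10 in context; 38 were in the table and 26 were tested. Of these, 14 rose, 5 fell and 7 did not pass, where 77.6% of all genes tested were called, 39.4% higher and 38.1% lower. The median log2 fold change was 0.19. NLRP2, with 5 counts over the scramble and 87 over the knockdown group, passed the filter through the knockdown libraries alone, and NLRP7, with 40 and 13, through the scramble libraries alone; both were chosen after their values were seen. Removing the GC trend made the split 11 higher and 10 lower, and it was 14 higher and 3 lower of 23 genes with limma on log2(TPM + 1). By the parent whose copy is expressed, 5 maternal genes rose and 3 fell of 10 tested, 2 paternal genes rose and 1 fell of 7, and 7 rose and 1 fell of 9 genes whose imprinting varies by transcript or person. RTL1, the paternally expressed neighbour of DLK1, ATP10A and CMKLR2 had 0 counts in all 6 libraries. The other 20 listed genes, among them MEG3 and H19, were not analysed here.

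KCNQ1, a maternally expressed potassium channel gene, fell from 23.9 ± 1.40 to 7.88 ± 0.589 TPM, a log2 fold change of -1.61 (SE 0.08, edgeR adjusted p = 9.66e-14). NAP1L5, a paternally expressed gene of the nucleosome assembly protein family, rose from 3.22 ± 0.300 to 13.7 ± 0.323 TPM, a log2 fold change of 1.95 (SE 0.11, edgeR adjusted p = 2.9e-12). For both, all 3 knockdown libraries lay on the same side of all 3 scramble libraries. COPG2, described above, had a log2 fold change of 0.84 (SE 0.06, edgeR adjusted p = 2.06e-10). IGF2R, the receptor that clears IGF2 from the cell surface, rose from 47.0 ± 1.44 to 64.1 ± 0.350 TPM, although IGF2 itself had no counts. RB1, the retinoblastoma cell-cycle brake, rose from 22.5 ± 0.806 to 32.2 ± 0.770 TPM, and BLCAP from 65.8 ± 0.981 to 89.5 ± 3.18 TPM. FAM50B rose from 3.14 ± 0.253 to 5.99 ± 0.438 TPM, and PPP1R9A, a neighbour of PEG10 that binds protein phosphatase 1, from 0.62 ± 0.137 to 1.14 ± 0.0794 TPM. NAA60, an acetyltransferase gene, fell from 96.2 ± 2.98 to 75.2 ± 2.29 TPM. The edgeR adjusted p was 4.97e-08 for IGF2R, 3.83e-07 for RB1, 3.35e-06 for BLCAP, 7.59e-05 for FAM50B, 1.94e-05 for PPP1R9A and 1.76e-09 for NAA60.

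SLC22A18, a transporter gene beside PHLDA2, rose from 3.30 ± 0.165 to 5.77 ± 0.684 TPM, and NAP1L4, on its other side, from 225 ± 14.2 to 287 ± 2.66 TPM. The edgeR adjusted p was 0.000338 for SLC22A18 and 0.000101 for NAP1L4, but NAP1L4 was no longer called with the GC trend removed, where its log2 fold change was 0.05 (adjusted p = 0.267). GRB10, an adaptor that dampens insulin signalling, had a log2 fold change of -0.19 (SE 0.05, edgeR adjusted p = 0.00105) and was not called by limma on log2(TPM + 1) (adjusted p = 0.296). CDKN1C, the maternally expressed cyclin-dependent kinase inhibitor, was at 11 ± 0.180 and 13.1 ± 0.329 TPM and did not pass the edgeR test (adjusted p = 0.107).

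**Figure D4:**
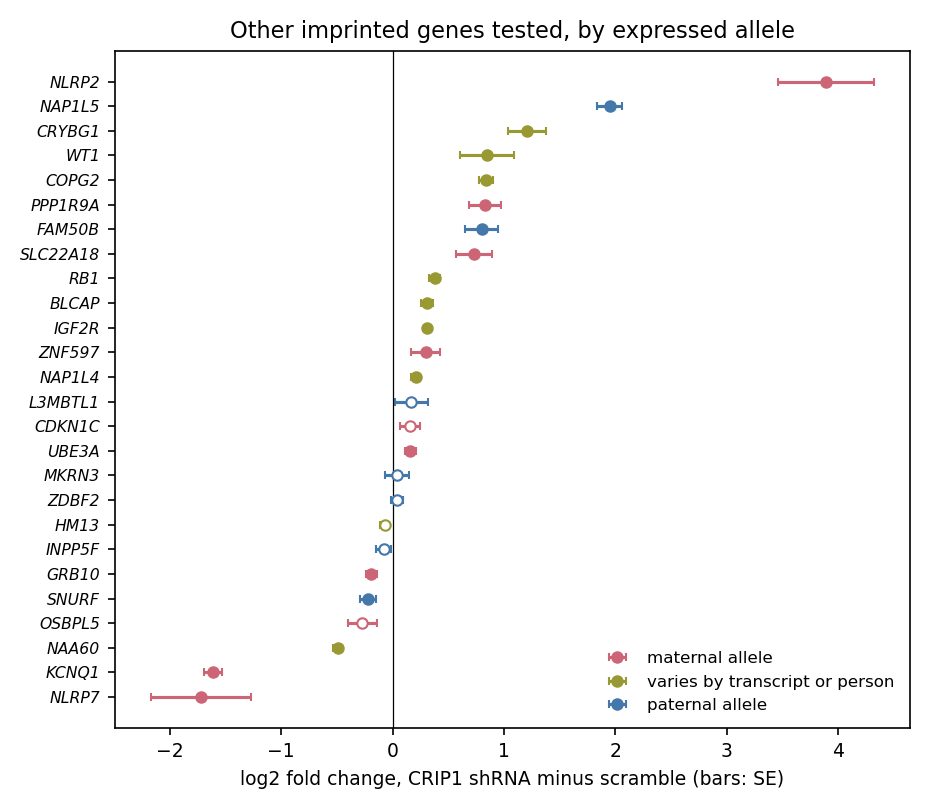
Log2 fold change, knockdown minus scramble, with its SE for the 26 other imprinted genes tested, coloured by the parental copy expressed; filled points were called by edgeR at an adjusted p below 0.05 and open points were not. There are 14 filled points above 0 and 5 below, with KCNQ1 at -1.61 and NAP1L5 at 1.95.

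The 54 nearest neighbours of the 10 genes, up to 3 on each side, held genes that rose and genes that fell. They were taken from the protein-coding genes of the deposited table. Genes absent from it were skipped, so a neighbour named here need not be the nearest on the chromosome. Of 36 tested, 16 rose and 14 fell, beside 77.6% of all genes called in either direction. Their median log2 fold change was 0.12, and 15 of the 54 are also in the longer list of imprinted genes. Removing the GC trend made the split 10 higher and 17 lower, and it was 18 higher and 9 lower of 34 genes with limma on log2(TPM + 1). Beside DLK1, WDR25 rose from 7.45 ± 1.14 to 17.7 ± 1.82 TPM and WARS1, the tryptophanyl-tRNA synthetase gene, from 146 ± 2.56 to 391 ± 7.02 TPM. WARS1 had a log2 fold change of 1.31 (SE 0.03, edgeR adjusted p = 1.03e-17) and WDR25 one of 1.09 (SE 0.11, edgeR adjusted p = 1.3e-08). BEGAIN, the gene next to DLK1 on that side, had 8 counts over the scramble and 3 over the knockdown libraries and was not tested. On the far side, past RTL1, PPP2R5C, a regulatory subunit gene of protein phosphatase 2A, fell from 154 ± 10.6 to 120 ± 1.58 TPM (edgeR adjusted p = 2.78e-08). DYNC1H1, the dynein heavy chain gene, was called lower by edgeR (log2 fold change -0.13, adjusted p = 0.00166), but its mean was 50.1 TPM in each group and the groups overlapped.

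Around IGF2, which had no counts, both nearest tested neighbours fell. MRPL23, a mitochondrial ribosomal protein gene, went from 144 ± 13 to 49.9 ± 0.319 TPM (edgeR adjusted p = 1.46e-13) and CD81, a tetraspanin gene, from 116 ± 4.55 to 55.2 ± 2.90 TPM (edgeR adjusted p = 9.64e-15). Beside PLAGL1, LTV1 fell from 69.0 ± 1.61 to 56.4 ± 3.5 TPM (edgeR adjusted p = 2.95e-07), and SF3B5, at 369 ± 14.6 and 432 ± 15.9 TPM, did not pass (edgeR adjusted p = 0.102). Beside PEG3, ZNF264 rose from 2.46 ± 0.210 to 3.94 ± 0.295 TPM (edgeR adjusted p = 1.49e-06). SNURF had a log2 fold change of -0.22 (SE 0.07, edgeR adjusted p = 0.00681), which was no longer called without scramble replicate 1 (-0.15, adjusted p = 0.0599). On the other side of SNRPN, MKRN3 did not pass (log2 fold change 0.04, edgeR adjusted p = 0.739). Small calls by edgeR at CASD1 (-0.14), CEP41 (0.13), ZNF71 (-0.29), NPEPL1 (-0.23) and NELFCD (0.10), all log2 fold changes, were each lost in 4 to 7 of the alternative settings. COL1A2, a collagen gene beyond CASD1, was chosen after its values were seen: it had 0 scramble and 660 knockdown counts, at least 213-fold higher against the same floor. COL1A2 too passed the filter through the knockdown libraries alone. PON3, counted among the neighbours that fell, had 59 scramble and 10 knockdown counts and passed through the scramble libraries alone. It was also chosen after its values were seen, and the place of either gene in the counts of neighbours is no support.

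**Figure D5:**
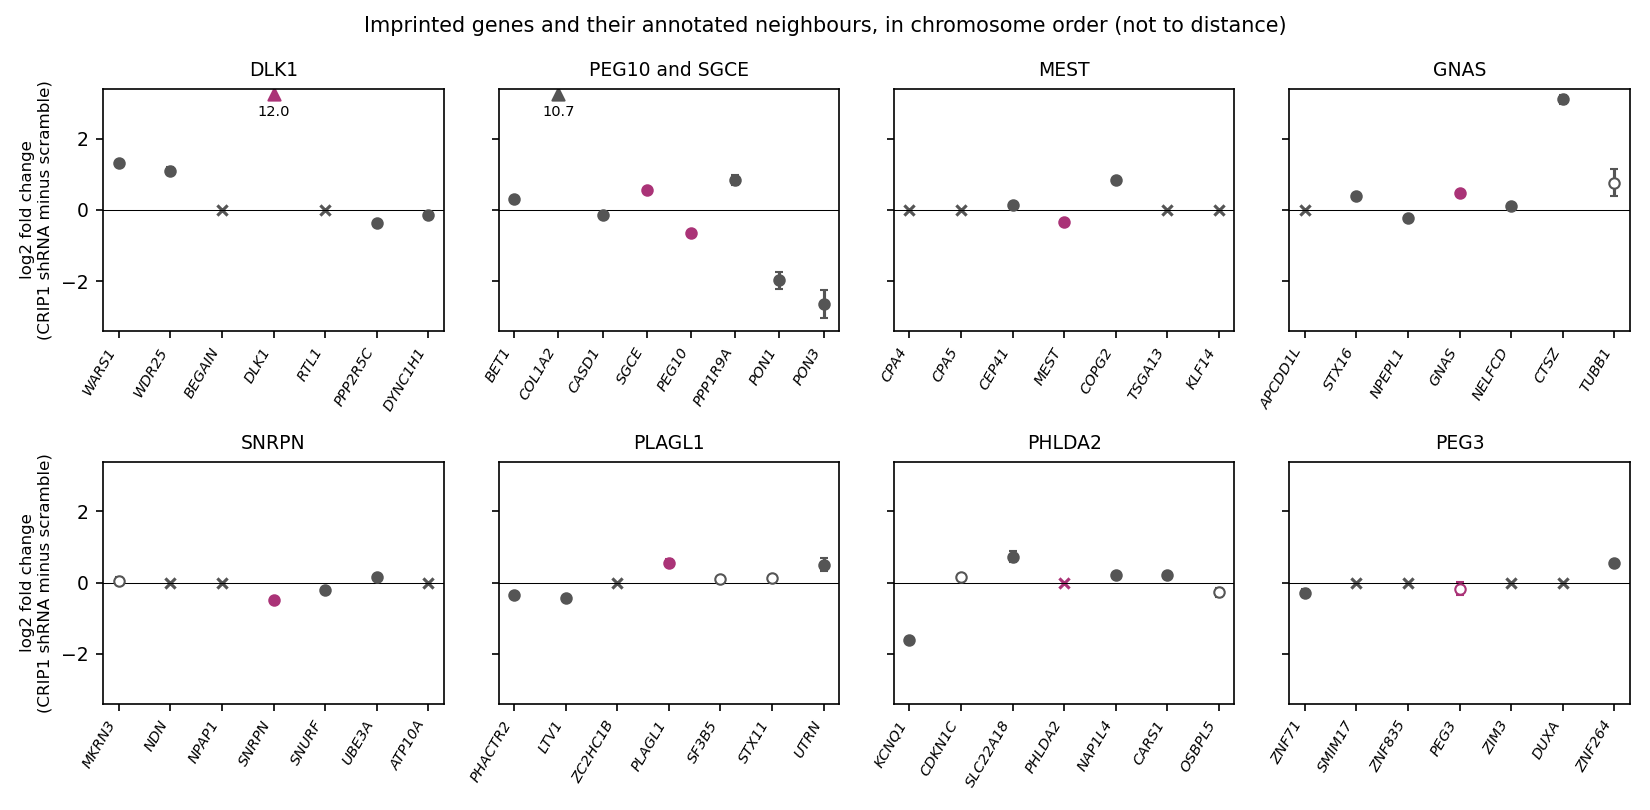
Log2 fold change, knockdown minus scramble, of the imprinted genes and their annotated neighbours in chromosome order, spaced evenly, with the IGF2 region left out. Filled points were called by edgeR, open points were not, a cross marks a gene not tested and a triangle a value beyond the axis; WARS1 and WDR25 lie above 0 beside DLK1, and PPP2R5C lies at -0.37.

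A further list held 23 genes that set, read or erase imprints. Of 19 tested, 9 rose and 6 fell, which is near the 77.6% called over all genes, with a median log2 fold change of -0.02; with the GC trend removed, 5 were higher and 11 lower. CTCFL, the germline paralog of the insulator protein CTCF, had 0, 1 and 1 counts in the scramble and 230, 209 and 201 in the knockdown libraries. It passed the filter on low counts through the knockdown libraries alone, so no p is given, and its place among the 9 is no support. KDM1B, a histone H3K4 demethylase needed to set maternal imprints in the egg, rose from 4.01 ± 0.371 to 10.4 ± 0.611 TPM, and TET3, which oxidises methylcytosine, from 14.7 ± 1.30 to 24.6 ± 1.33 TPM. The edgeR adjusted p was 2.83e-11 for KDM1B and 9.37e-10 for TET3. EHMT2, a histone H3K9 methyltransferase, fell from 50.7 ± 1.38 to 29.5 ± 0.939 TPM, KDM1A, a histone demethylase, from 75 ± 1.72 to 48.7 ± 1.61 TPM, and DNMT3B, a de novo DNA methyltransferase, from 20.4 ± 0.762 to 11.1 ± 0.342 TPM. The edgeR adjusted p was 1.31e-13 for EHMT2, 1.19e-12 for KDM1A and 1.63e-12 for DNMT3B. ZFP57 had 1 count over all 6 libraries.

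The last list held 31 genes that act with the products of the 10. Of 25 tested, 10 rose and 12 fell, beside 39.4% higher and 38.1% lower over all genes tested, with a median log2 fold change of -0.07. Among receptors and binders of IGF2 and its RNA, 2 rose and 5 fell of 7 tested. IGFBP6, with 79 counts over the scramble and 27 over the knockdown group, passed the filter through the scramble libraries alone. Its place among the 5 is no support, and it was chosen after its values were seen. INSR, the insulin receptor gene, rose from 18 ± 0.278 to 37.6 ± 1.23 TPM. IGF1R, the other receptor gene of this group, fell from 14.7 ± 0.651 to 11.9 ± 0.558 TPM (edgeR adjusted p = 2.7e-08). It was named after its values were seen. IGF2R, which rose, is counted with the other imprinted genes. IGFBP4, which binds insulin-like growth factors, fell from 24.9 ± 0.404 to 10.3 ± 0.793 TPM, and IGF2BP2, an RNA-binding protein gene, from 10.4 ± 0.607 to 4.30 ± 0.201 TPM. The edgeR adjusted p was 1.57e-14 for INSR, 7.98e-13 for IGFBP4 and 8.9e-12 for IGF2BP2.

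In the cAMP arm of GNAS, 5 rose and 5 fell of 11 tested. PDE4D, which breaks down cAMP, rose from 8.85 ± 0.208 to 21.1 ± 0.946 TPM (edgeR adjusted p = 2.4e-14). ADCY3, an adenylyl cyclase that makes cAMP, fell from 52.6 ± 0.421 to 32.2 ± 0.159 TPM (edgeR adjusted p = 9.47e-14). The others called higher were PRKACA, PRKACB, PRKAR1A and PRKAR2B, and the others called lower were ADCY6, ADCY7, ADCY9 and GNB1. For GNB1 the groups overlapped, at 332 ± 8.29 TPM in the scramble and 324 ± 6.21 TPM in the knockdown libraries. These further genes were named after their values were seen. Of the Notch receptors and targets considered with DLK1, 3 rose and 1 fell of 5 tested. NOTCH2, one of the Notch receptors, rose from 36.9 ± 1.60 to 61.4 ± 0.161 TPM (edgeR adjusted p = 5.2e-12). Of the Notch targets, HEY1 fell from 9.34 ± 1.19 to 6.43 ± 0.501 TPM (edgeR adjusted p = 1.75e-05), while HES1 had 1, 0 and 0 counts in the scramble and 20, 28 and 23 in the knockdown libraries. HES1 passed the filter through the knockdown libraries alone, so its place among the 3 is no support, and both targets were chosen after their values were seen.

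Markers of other tissues in which imprinted genes are active were also read in these libraries, and their part in the changes was not tested. Hepatoblast markers (5 in the table) summed to 0.3 to 0.82 TPM in the scramble and 2.68 to 4.22 TPM in the knockdown libraries, mostly from ALB, the albumin gene, with 29 counts over the scramble and 181 over the knockdown group; FGB had 0 counts in all libraries. The 4 markers of adrenal and neural crest cells in the table summed to 0.11 to 0.3 and 2.13 to 2.95 TPM, with DBH and CHGA at 0 in all libraries. STAR, of steroid synthesis, had 6 counts over the scramble and 162 over the knockdown group and passed the filter through the knockdown libraries alone. Trophoblast markers (8 in the table) summed to 10.7 to 12.1 and 8.99 to 11 TPM, with CGA at 0 in all libraries. Within that sum KRT7 went from 8.91 ± 1.15 to 5.93 ± 1.34 TPM, while GATA3 went from 0.2 ± 0.0781 to 1.14 ± 0.0945 TPM. ERVW-1 went from 0.393 ± 0.11 to 0.97 ± 0.137 TPM (SD, n = 3). Like STAR, the genes ALB, GATA3 and ERVW-1 passed the filter through the knockdown libraries alone. Stromal markers (5 in the table) summed to 7.05 to 7.7 and 5.34 to 6.25 TPM, with DCN at 0 in all libraries. That sum joins opposite changes. COL1A1 went from 1.12 ± 0.129 to 0.0533 ± 0.0306 TPM and PDGFRB from 6.18 ± 0.367 to 1.07 ± 0.0866 TPM. COL1A2 went from 0 to 4.61 ± 0.532 TPM (SD, n = 3). COL1A1 passed the filter through the scramble libraries alone and COL1A2 through the knockdown libraries alone.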

How the data were processed

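Per the labels, total RNA of KMS11 cells was made into mRNA libraries with a SMARTer kit. Titles of the samples gave the groups and replicate numbers. The deposited table lists each gene's estimated count, FPKM and TPM in each library, per the file headers. Tools listed in the submitters' processing notes, with no role or order, are RSEM 1.2.8, HISAT2 2.1.0 and Bowtie2 2.2.5, with the build GRCh38.p13; the annotation and strand setting are not given in the sources used here. Rounded estimated counts went into edgeR 4.0.16 under R 4.3.3 (filterByExpr at a minimum count of 10, TMM, quasi-likelihood fit on group, Benjamini-Hochberg over the 12612 genes tested, threshold 0.05). SE is the log2 fold change over the square root of F. TPM served for levels and for alternatives with limma 3.58.1 (pseudocount 1); DESeq2 1.42.0 was a further alternative. edgeR's common biological coefficient of variation came to 3.33%. Libraries of a group differed by more than sampling noise (chi-square per gene 1.62 to 4.15, against 99.3 to 104 between groups). The fit was also run on simulated data in which few genes changed, equally up and down. Most genes tested were called in these libraries, so that run does not check the fit at such a share.

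The 10 genes, the lists and the tests were chosen with earlier results of these data known. Named were the 10 genes and CRIP1, up to 12 called imprinted genes with a mean of at least 1 TPM in a group, the 3 smallest adjusted p in each direction of the imprint control and partner lists, called neighbours of DLK1, the nearest tested neighbour on each side of the others, and the 5 genes nearest to DLK1. Gene positions and GC content came from GENCODE 29, neighbour order and promoter windows from RefSeq GRCh38.p14. The GC trend was removed per library by loess (span 0.5), added after seeing the data.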

Additional observations from a re-analysis of the deposited data

How the results depend on the processing

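The 4 higher and 3 lower calls among the 10 genes held under every one of the 14 alternatives: DESeq2's test and size factors, upper-quartile scaling, no filter, a filter of 50 counts in 3 libraries, GC trend removal, limma on log2(TPM + 1), the replicate block and 6 fits that each left out a library. Over those that keep the count scale, the log2 fold change ranged from -0.78 to -0.61 for PEG10, -0.53 to -0.31 for MEST, -0.55 to -0.46 for SNRPN, 0.28 to 0.59 for SGCE, 0.48 to 0.60 for PLAGL1, 0.42 to 0.51 for GNAS and -0.38 to -0.03 for PEG3. The fitted change of DLK1 rests on the prior count and is no bound. The median over all genes shifted by -0.14 with the GC trend removed and by 0.11 on log2(TPM + 1).

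With limma on log2(TPM + 1), 3 other imprinted genes and 9 neighbours were lower. With the GC trend removed, 10 other imprinted genes were lower, 5 imprint control genes were higher and 11 lower, and 10 neighbours were higher. CEP41 turned to -0.12 with the GC trend removed, and MKRN3, never called, to -0.13 there and to between -0.01 and 0.09 when 1 library was left out. Of 755 values for 54 named genes, 715 kept direction and call. The cause was not tested.

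Leaving out 1 library gave 4 higher and 3 lower of the 10 genes each time, 13 to 14 higher and 4 to 7 lower of the other imprinted genes, 8 to 9 and 6 to 7 of the imprint control genes, 10 and 12 to 13 of the partner genes, and 14 to 16 and 11 to 14 of the neighbours. Same-numbered libraries did not deviate together (correlations 0.0455, -0.00887 and -0.0135), so the number only names a library. With the replicate number as a block, 4 of the 10 genes were higher and 3 lower, as were 14 and 5 other imprinted genes, 9 and 6 imprint control genes, 10 and 12 partner genes, 15 and 14 neighbours, and 4985 and 4831 of all genes. Depth limits PHLDA2, PEG3 and IGF2, with at most 61 counts a library.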
